A study of Mus musculus with 29 samples.

Results

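Expression of 10 imprinted genes with roles in growth and in the quiescence of blood stem cells was described in sorted stem and progenitor cells from mouse bone marrow. The genes were taken by symbol as H19, Igf2, Meg3, Rian, Mirg, Grb10, Ndn, Peg3, Plagl1 and Igf2r, and all 10 were present among the 23366 genes counted. The mice were C57BL/6 animals of 8 to 12 weeks, and the labels give male and female animals together. Marrow cells negative for lineage markers and positive for cKit and Sca1 were split on CD150, a surface receptor, into a positive fraction that holds stem cells and a negative fraction that holds multipotent progenitors. Mysm1 encodes a deubiquitinase of histone H2A, and Puma is the cell death protein encoded by Bbc3, a target of p53. CD150-positive cells gave 4 libraries labelled Mysm1-/-Puma+/-, 7 labelled Mysm1-/-Puma-/-, 2 labelled Puma-/- and 4 labelled wild type. CD150-negative cells gave 3 libraries of each of these genotypes. The submitters used Mysm1-/-Puma+/- mice, which carry 1 intact Puma allele, as the model of Mysm1 loss. Whether a group's libraries stem from different animals is not given, so the p-values reflect the spread among these libraries alone, and that spread may be technical.

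Imprinted genes are transcribed mainly from the allele of one parent, through DNA methylation that is set in the germ line and differs between the parental alleles. Paternally expressed genes such as Igf2, Peg3, Plagl1 and Ndn and maternally expressed genes such as H19, Meg3, Igf2r and, in most mouse tissues, Grb10 lie in clusters that share control regions. In mouse blood stem cells, maternal H19 restrains growth signalling through Igf2 and the receptor Igf1r, the Meg3 cluster restrains signalling through mTOR, and necdin, the product of Ndn, slows entry into the cell cycle. These libraries cannot separate the parental alleles, so the values are totals of both.

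CD150-positive libraries held 12304713 to 35034318 counts each, and CD150-negative libraries 28066870 to 54339749. The sort was visible in Slamf1, which encodes CD150, with 11.0 to 30.4 TMM-scaled CPM (counts relative to the scaled library total) in the 17 CD150-positive and 0.218 to 2.30 CPM in the 12 CD150-negative libraries. Mysm1 was counted at 96.0 to 109 CPM in Mysm1-/-Puma+/- and at 111 to 126 CPM in wild-type CD150-positive libraries, and at 66.4 to 90.1 CPM in Mysm1-/-Puma-/- and 130 to 132 CPM in Puma-/- libraries of that fraction. Bbc3 was counted at 17.2 to 23.9 CPM in Mysm1-/-Puma+/- and 2.85 to 4.64 CPM in wild-type CD150-positive libraries, and at 15.9 to 25.3 CPM in Mysm1-/-Puma-/- and at 2.29 to 2.70 CPM in Puma-/- CD150-positive libraries. Counts over a whole gene do not part deleted from remaining exons, so they check neither label, and the genotypes used are those of the labels. Counts on 1474 chemosensory receptor genes (olfactory, vomeronasal and trace amine families) served as a yardstick of background. They made up 622 to 9004 CPM of the CD150-positive and 1042 to 5810 CPM of the CD150-negative libraries. The CD150-positive libraries B5, C2-5 and D2 and the CD150-negative library B1 lay above 1.5 times the median of their population.

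Positions of the genes are given in build NCBIM37, which is mm9. Grb10 spans chr11:11830511-11938686 on the minus strand, and no other annotated gene overlaps it. Ndn spans chr7:69493163-69494814 on the plus strand, again with no overlapping gene. Meg3, Rian and Mirg follow one another on the plus strand of chromosome 12, at chr12:110779211-110809936, chr12:110842155-110899919 and chr12:110973191-110987665. They overlap 3, 17 and 10 annotated genes, mostly small RNAs. H19 lies at chr7:149761434-149764048 and Igf2 at chr7:149836673-149852721, both on the minus strand, and they overlap the microRNA genes Mir675 and Mir483. Igf2 also overlaps the antisense gene Igf2as. Igf2r lies at chr17:12875272-12962530 on the minus strand over part of the antisense RNA gene Airn. Peg3 lies at chr7:6656603-6683132 on the minus strand and Plagl1 at chr10:12810497-12851500 on the plus strand, and neither overlaps another gene. The strand setting of the counting is not given in the sources used here, so reads of overlapping genes cannot be told apart from those of the members.

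The start regions of Grb10, Ndn and Meg3 are shown because these members were called between the cell fractions in more than 1 genotype. Each runs from 250 bases before to 50 bases after the annotated start, from the RefSeq table of build GRCm38.p6, which is another build than that of the counts. Capitals mark each CG, the base pair step that DNA methylation acts on, in Grb10 (chr11:12037371-12037670, minus strand) and Ndn (chr7:62348027-62348326, plus strand). In Meg3 (chr12:109540746-109541045, plus strand) they mark TGACGTCA, the full cyclic AMP response element.
Grb10: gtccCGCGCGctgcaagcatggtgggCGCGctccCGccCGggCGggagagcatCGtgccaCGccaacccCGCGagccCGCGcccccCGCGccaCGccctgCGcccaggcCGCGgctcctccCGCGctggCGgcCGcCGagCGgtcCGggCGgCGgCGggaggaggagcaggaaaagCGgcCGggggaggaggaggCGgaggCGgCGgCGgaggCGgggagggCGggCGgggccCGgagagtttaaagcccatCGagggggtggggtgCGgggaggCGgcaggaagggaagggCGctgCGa
Ndn: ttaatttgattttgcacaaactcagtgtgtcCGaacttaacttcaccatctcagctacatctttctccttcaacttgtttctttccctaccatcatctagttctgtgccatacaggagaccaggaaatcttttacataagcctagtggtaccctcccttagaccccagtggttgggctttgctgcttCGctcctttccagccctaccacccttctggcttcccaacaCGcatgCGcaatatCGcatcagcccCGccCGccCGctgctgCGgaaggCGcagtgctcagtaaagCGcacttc
Meg3: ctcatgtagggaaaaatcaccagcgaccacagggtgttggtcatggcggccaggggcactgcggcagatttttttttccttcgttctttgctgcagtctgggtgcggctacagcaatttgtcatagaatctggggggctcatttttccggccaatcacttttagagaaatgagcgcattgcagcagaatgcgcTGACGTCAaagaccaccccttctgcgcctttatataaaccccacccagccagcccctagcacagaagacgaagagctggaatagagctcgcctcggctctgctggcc
The Grb10 window holds 45 CG, and 98.1% of 32851 promoter windows of 300 bases hold fewer, against a median of 7. The second Grb10 window in the table holds 9. The Ndn window holds 11 CG and the Meg3 window 13, with fewer in 58.6% and in 62.1% of windows. TGACGTCA, which reads the same on both strands, begins 57 bases before the Meg3 start. It occurs in 1.79% of all windows and, among the members, also in the Peg3 window. GGGGCCCC, likewise the same on both strands, was found in 1.08% of windows and, among the members, in that of Peg3. AGATAA, searched on both strands, was found in 11.2% of windows and, among the members, in that of Rian. The p53 full site, searched on both strands and found in 0.0731% of windows, was in no member window searched, and H19 has no window in the table. These matches describe letters and no binding.

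Levels set per kilobase of deposited gene length parted the members into 3 that exceeded the receptor yardstick in most libraries and 7 near it. Igf2r, the receptor that carries Igf2 to the lysosome, averaged 9.58 CPM per kb and exceeded the 95th percentile of receptor genes in 29 of 29 libraries. Grb10, an adaptor that damps insulin and Igf1 receptor signalling, averaged 4.39 CPM per kb and exceeded it in 24. Ndn averaged 3.11 CPM per kb and also exceeded it in 24. For Grb10 and Ndn, every library that did not exceed it was CD150-negative. In the CD150-negative Mysm1-/-Puma+/- libraries Grb10 averaged 0.79 and Ndn 0.59 CPM per kb, where that percentile ran from 0.34 to 1.19. The noncoding RNAs Rian, H19 and Meg3 averaged 0.73, 0.71 and 0.53 CPM per kb and exceeded it in 7, 6 and 1 libraries. Plagl1, Peg3, Igf2 and Mirg averaged 0.50, 0.35, 0.32 and 0.24 CPM per kb and exceeded it in 1 library each. All 10 passed the filter on low counts in each fit.

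**Figure D1:**
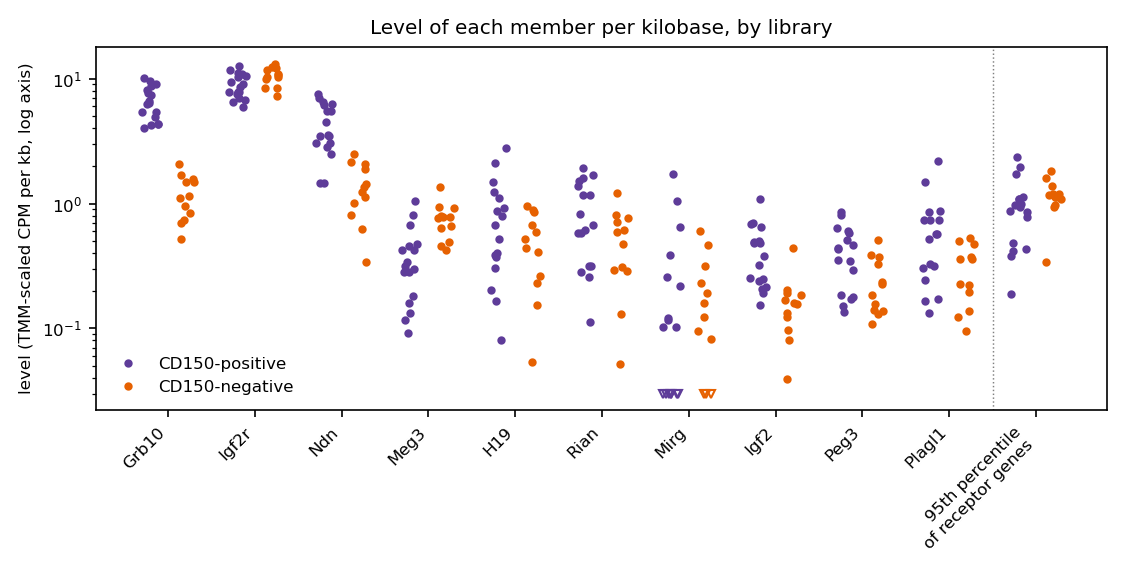
TMM-scaled CPM per kilobase (log axis) of each member in 17 CD150-positive (purple) and 12 CD150-negative (orange) libraries, beside the 95th percentile of 1474 receptor genes in the same libraries. Open triangles at the lower edge mark levels under the axis, here libraries in which Mirg had 0 reads. Igf2r lies above the receptor values in every library, while Plagl1, Peg3, Igf2 and Mirg lie within or below their range in nearly all.

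Grb10 was the member with the clearest differences: it was lower in Mysm1-/-Puma+/- than in wild-type cells and several-fold higher in CD150-positive than in CD150-negative cells. In CD150-positive cells it had 39.8, 42.1, 42.4 and 42.5 CPM in the Mysm1-/-Puma+/- libraries, against 79.7, 90.1, 93.9 and 101 CPM in the wild-type libraries. The groups did not overlap, and each wild-type library lay well above every Mysm1-/-Puma+/- library. Grb10 fell by 1.06 on the log2 scale (SE 0.15), with an adjusted p of 5.14e-04 by edgeR's quasi-likelihood test with Benjamini-Hochberg adjustment over 20944 genes, as are all adjusted p-values here. It was the only one of the 10 members called at an adjusted p under 0.05, while 0.454% of all genes tested were called, 0.0812% lower and 0.372% higher. With the number in the library titles as a replicate block, Grb10 came to -1.01 (adjusted p = 0.00197). Then 3 members were called, Grb10, Meg3 and Ndn, while the share of all genes called was 0.769%. This block set A1 beside D1 and W1, A2 beside D2 and A3 beside D3-4, while A4 had no wild-type partner. The labels do not give these numbers as a pairing. Ndn, Meg3 and Rian also had groups that did not overlap. The share of all genes whose groups did not overlap is not given, here or for the comparisons below. Non-overlap is thus a description of these libraries and no result about the members. Leaving out any single library kept the adjusted p of Grb10 between 3.36e-04 and 0.00359.

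In CD150-negative cells Grb10 had 5.08, 7.24 and 10.9 CPM in Mysm1-/-Puma+/- libraries, against 14.6, 16.6 and 20.5 CPM in wild-type libraries. These groups did not overlap either. The Mysm1-/-Puma+/- mean here was 0.79 CPM per kb, near the receptor yardstick. The log2 fold change was -1.12 (SE 0.26) with an adjusted p of 0.0459. No other member was called, while 0.869% of genes were called, 0.231% lower and 0.638% higher. This call rested on a narrow margin: the adjusted p reached 0.051 with RLE size factors and 0.258 without the wild-type library D4. With the title numbers as a replicate block the log2 fold change was -1.01 and the adjusted p 0.61. The call was also lost on leaving out 10 of the 12 libraries in turn. The Mysm1-/-Puma+/- effect in CD150-positive minus that in CD150-negative cells was 0.03 for Grb10 (SE 0.26, adjusted p = 1). In bulk samples, fewer cells of a type and less RNA per cell cannot be told apart.

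Grb10 was not called between Mysm1-/-Puma-/- and Puma-/- cells. In CD150-positive cells Grb10 ran from 49.0 to 73.5 CPM with a median of 62.1 in the 7 Mysm1-/-Puma-/- libraries, against 76.0 and 86.0 CPM in the 2 Puma-/- libraries. The lowest Puma-/- library lay just above the highest Mysm1-/-Puma-/- library. The log2 fold change was -0.37 (SE 0.16, adjusted p = 0.492), and no member was called where 0.115% of genes were, 0.0907% higher and 0.0239% lower. In CD150-negative cells Grb10 had 6.83, 8.29 and 9.41 CPM in Mysm1-/-Puma-/- libraries, against 11.4, 14.7 and 15.4 CPM in Puma-/- libraries, with no overlap. That log2 fold change was -0.80 (SE 0.25, adjusted p = 0.187), and again no member was called where 1.35% of genes were, 0.411% higher and 0.935% lower.

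Between the genotypes without Mysm1, all 7 Mysm1-/-Puma-/- libraries of CD150-positive cells lay above the 4 Mysm1-/-Puma+/- libraries in Grb10. The log2 fold change was 0.48 (SE 0.13, adjusted p = 0.964), in a comparison with 0 genes called by edgeR, 797 at an unadjusted p under 0.05 and 3 by DESeq2. In CD150-negative cells the same comparison gave a Grb10 difference of -0.01 (SE 0.25, adjusted p = 0.993), and no member was among the 1.24% of genes called, 0.194% higher and 1.05% lower. Puma-/- against wild type gave -0.21 (SE 0.18) in CD150-positive and -0.33 (SE 0.25) in CD150-negative cells, both with an adjusted p of 1. No gene was called there by edgeR in either population, with 255 and 324 genes at an unadjusted p under 0.05 and 0 and 2 called by DESeq2.

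Grb10 was higher in CD150-positive than in CD150-negative cells of every genotype. The log2 fold changes were 2.43 (SE 0.20) in Mysm1-/-Puma+/-, 2.87 (SE 0.19) in Mysm1-/-Puma-/-, 2.55 (SE 0.22) in Puma-/- and 2.40 (SE 0.20) in wild-type mice, with adjusted p-values from 4.11e-11 to 1.26e-08. The wild-type value is a 5.28-fold difference. In Mysm1-/-Puma+/- mice 5.9% of genes were called between the fractions, 2.67% higher and 3.24% lower. In Mysm1-/-Puma-/- mice 12.3% were, 5.16% higher and 7.14% lower. The share was 4.94% in Puma-/- mice, 2.29% higher and 2.66% lower, and 7.15% in wild-type mice, 3.09% higher and 4.05% lower. Members called were Grb10, Ndn and Meg3 in both genotypes without Mysm1, Grb10, Ndn and Igf2 in Puma-/- and Grb10 and Ndn in wild-type mice. The group means of Grb10 in CD150-positive cells were 41.7 ± 1.26 CPM in Mysm1-/-Puma+/- (SD, n = 4), 60.0 ± 8.54 in Mysm1-/-Puma-/- (n = 7), 81.0 ± 7.06 in Puma-/- (n = 2) and 91.0 ± 8.72 in wild-type mice (n = 4). In CD150-negative cells they had the same order, at 7.75 ± 2.96, 8.18 ± 1.30, 13.8 ± 2.15 and 17.2 ± 3.02 CPM (SD, n = 3 each). Puma-/- and wild type overlapped in both fractions, as did the genotypes without Mysm1 in CD150-negative cells. The comparisons share libraries, so their values stand side by side and are no independent support for one another.

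**Figure D2:**
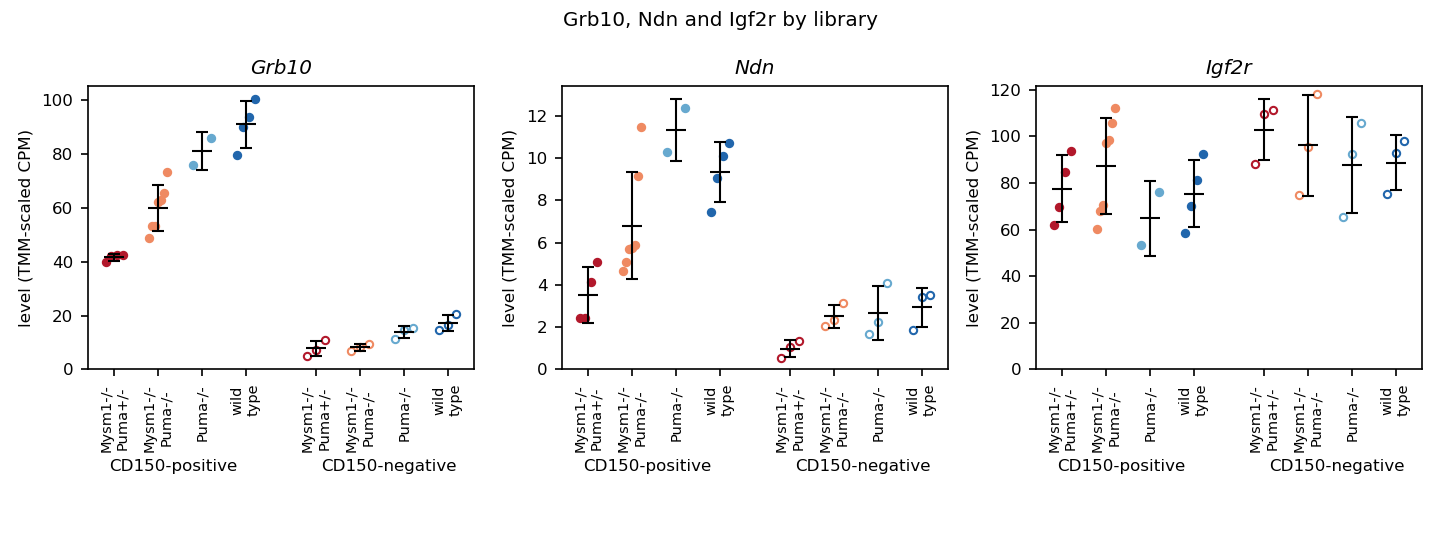
TMM-scaled CPM of Grb10, Ndn and Igf2r in each library by genotype, with filled points for CD150-positive and open points for CD150-negative cells. Black bars give the mean and SD of 4, 7, 2 and 4 CD150-positive and of 3 CD150-negative libraries a genotype. The 4 Mysm1-/-Puma+/- values of Grb10 in CD150-positive cells lie between 39.8 and 42.5 CPM, below all wild-type values, while the Igf2r groups overlap.

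Ndn was called between the cell fractions of every genotype and, in the fit without a replicate block, between no genotypes. In CD150-positive cells it had 2.42, 2.43, 4.15 and 5.08 CPM in Mysm1-/-Puma+/- libraries, against 7.47, 9.05, 10.1 and 10.7 CPM in wild-type libraries. The groups did not overlap, but the difference was not called, with a log2 fold change of -1.33 (SE 0.33, adjusted p = 0.0961). With the replicate block it was called (-1.53, adjusted p = 0.0491). It was also called by DESeq2 (adjusted p = 0.00538) and with the receptor background as a covariate in edgeR (adjusted p = 0.0297). In CD150-negative cells Ndn had 0.558, 1.04 and 1.34 CPM in Mysm1-/-Puma+/- libraries, against 1.87, 3.41 and 3.52 CPM in wild-type libraries. These did not overlap, at -1.56 (SE 0.50, adjusted p = 0.222), and each Mysm1-/-Puma+/- value lay under the 95th percentile of receptor genes per kilobase. In Mysm1-/-Puma-/- against Puma-/- mice the groups overlapped, with -0.66 (SE 0.35, adjusted p = 0.536) in CD150-positive and -0.14 (SE 0.48, adjusted p = 0.978) in CD150-negative cells.

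Mysm1-/-Puma-/- libraries had Ndn between 4.65 and 11.5 CPM in CD150-positive cells, against 2.42 to 5.08 CPM in Mysm1-/-Puma+/- libraries, which overlap (log2 fold change 0.90, SE 0.30, adjusted p = 1). In CD150-negative cells they had 2.03, 2.35 and 3.13 CPM, all above the 3 Mysm1-/-Puma+/- values (1.26, SE 0.49, adjusted p = 0.194). CD150-positive cells had more Ndn than CD150-negative cells in every genotype. The log2 fold changes were 1.85 (adjusted p = 0.00377) in Mysm1-/-Puma+/-, 1.44 (0.00738) in Mysm1-/-Puma-/-, 2.08 (0.00379) in Puma-/- and 1.66 (0.00639) in wild-type mice. The adjusted p became 0.0592 in Puma-/- mice without the CD150-positive library C2-5, and 0.0668 in wild-type mice without the CD150-negative library D2.

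The summed levels of markers of other cells stand beside these comparisons. The summed level of 7 genes of multipotent progenitors and lymphoid priming was 269 to 869 CPM in CD150-positive and 1398 to 3640 CPM in CD150-negative libraries, with none at 0 in every library of a group. The 7 megakaryocyte markers summed to 519 to 1295 CPM in Mysm1-/-Puma+/- and 305 to 541 CPM in wild-type CD150-positive libraries, which overlap, also with none at 0 throughout. None of the 7 was called by edgeR there, with 4 higher and 1 lower at an unadjusted p under 0.05. The part of these cells in the Grb10 and Ndn differences was not tested. In CD150-negative cells the progenitor list summed to 1398 to 2952 CPM in Mysm1-/-Puma+/- and 2923 to 3640 CPM in wild-type libraries. The 13 stromal markers summed to 234 to 257 CPM in Mysm1-/-Puma+/- and 253 to 474 CPM in wild-type CD150-negative libraries, with 1 of them, Pdgfrb, called lower (-1.18, adjusted p = 0.000667). That sum came mostly from Runx2, Lepr and Pdgfrb, with medians of 205, 58.6 and 47.9 CPM over the CD150-negative libraries. The other stromal markers, among them Cxcl12 (2.04 CPM) and Col3a1 (1.70 CPM), had medians of at most 4.12 CPM. The sum is thus no measure of stromal cells. Among 16 stem cell markers, Mecom was called higher (0.70, adjusted p = 0.0165) and Fgd5 (-1.02, adjusted p = 0.0328) lower in Mysm1-/-Puma+/- than in wild-type CD150-negative cells. Of 9 markers of T and NK cells, Nkg7 was called higher in both fractions (1.12, adjusted p = 0.0284 in CD150-positive and 1.13, adjusted p = 0.0151 in CD150-negative cells).

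Igf2r was the most abundant member and showed no called difference in any of the 13 comparisons. In CD150-positive cells it had 62.0, 69.5, 84.6 and 93.9 CPM in Mysm1-/-Puma+/- libraries, against 58.4, 69.9, 81.2 and 92.2 CPM in the wild-type libraries. The groups lay over one another, with a log2 fold change of 0.11 (SE 0.22, adjusted p = 0.873) whose sign turned without the Mysm1-/-Puma+/- library A1 or the wild-type library D2. In CD150-negative cells it had 88.0, 109.6 and 111 CPM in Mysm1-/-Puma+/- libraries, against 75.5, 92.7 and 98.2 CPM in wild-type libraries (0.24, SE 0.19, adjusted p = 0.774). Between the fractions of wild-type mice the difference was -0.23 (SE 0.21, adjusted p = 0.692). A missed threshold does not show equal levels.

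Meg3, the noncoding RNA at the head of the chromosome 12 cluster, was called between the cell fractions in both genotypes without Mysm1 and, in the fit without a replicate block, between no genotypes. In CD150-positive cells it had 2.43, 3.13, 7.60 and 7.97 CPM in Mysm1-/-Puma+/- libraries, against 11.4, 12.6, 18.0 and 21.5 CPM in wild-type libraries. The groups did not overlap, but the difference of -1.53 (SE 0.40) was not called (adjusted p = 0.118). With the replicate block it was called (-1.95, adjusted p = 0.0149), as it was by DESeq2 (adjusted p = 0.0201). Receptor background was 1420 to 3449 CPM in these Mysm1-/-Puma+/- and 2564 to 8186 CPM in these wild-type libraries. With that background as a covariate, Meg3 came to -1.30 (adjusted p = 0.0592). In mice without Puma, Meg3 ran from 3.55 to 11.2 CPM with a median of 7.55 in Mysm1-/-Puma-/- libraries, against 12.2 and 28.2 CPM in Puma-/- libraries (-1.45, SE 0.41, adjusted p = 0.321). Without the Puma-/- library C2-5 that difference was -0.79 (adjusted p = 1).

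In CD150-negative cells the Meg3 values of 11.3, 17.5 and 20.9 CPM in Mysm1-/-Puma+/- libraries overlapped those of 13.2, 20.8 and 25.1 CPM in wild-type libraries (-0.21, SE 0.26, adjusted p = 0.868). Mysm1-/-Puma-/- libraries had 21.2, 24.6 and 36.2 CPM, against 12.3, 16.9 and 20.3 CPM in Puma-/- libraries (0.68, SE 0.26, adjusted p = 0.311). The Mysm1 effect in CD150-positive minus that in CD150-negative cells was -1.34 for Meg3 (SE 0.56), at an unadjusted p of 0.0242 and an adjusted p of 1. Only 2 genes, or 0.00916%, were called in that test, and no member was among them. Meg3 was lower in CD150-positive than in CD150-negative cells of Mysm1-/-Puma+/- mice (-1.65, SE 0.40, adjusted p = 0.00866) and of Mysm1-/-Puma-/- mice (-1.97, SE 0.34, adjusted p = 1.23e-04). It was not called in Puma-/- (0.29, SE 0.47) or wild-type mice (-0.31, SE 0.39). The call in Mysm1-/-Puma+/- mice was lost, at 0.0582, without the CD150-negative library A2.

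**Figure D3:**
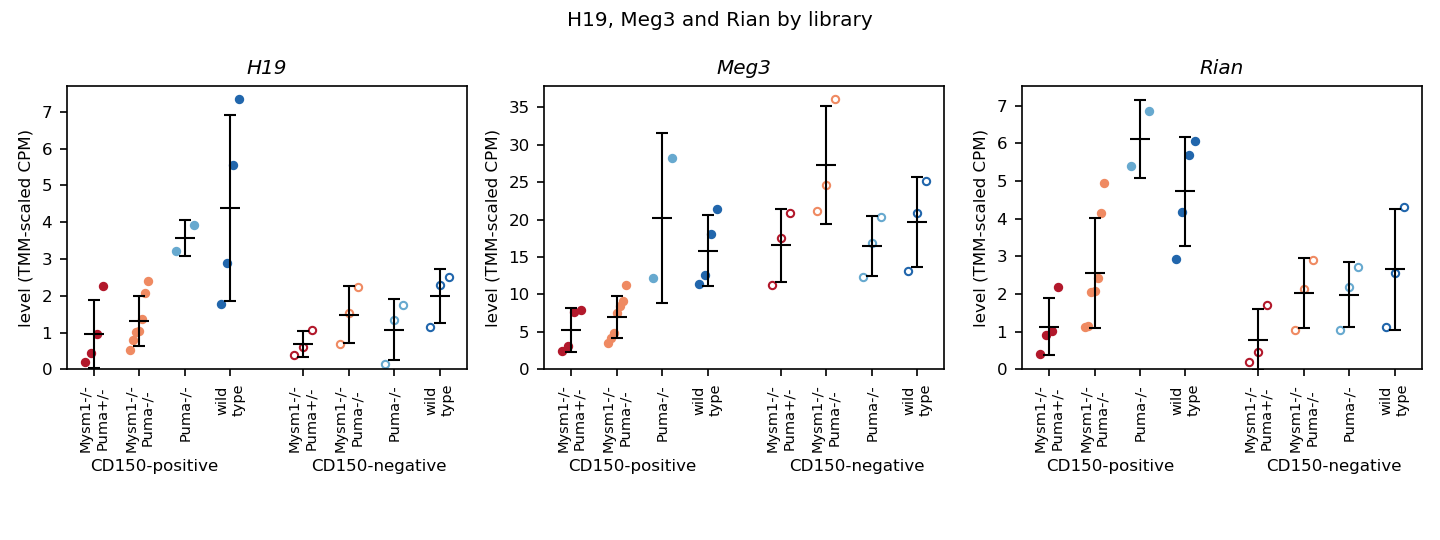
TMM-scaled CPM of the noncoding RNAs H19, Meg3 and Rian in each library by genotype, drawn as in the plot of Grb10, Ndn and Igf2r. In CD150-positive cells the Mysm1-/-Puma+/- values of Meg3 and Rian lie below all wild-type values, and those of H19 overlap them.

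Rian, which hosts small nucleolar RNAs further along the cluster, had 0.403, 0.923, 1.02 and 2.18 CPM in Mysm1-/-Puma+/- CD150-positive libraries, against 2.94, 4.19, 5.71 and 6.08 CPM in wild-type libraries. The groups did not overlap (-2.02, SE 0.55, adjusted p = 0.144), and DESeq2 called the difference (adjusted p = 0.0138). In CD150-negative cells Rian had 0.186, 0.464 and 1.70 CPM in Mysm1-/-Puma+/- libraries, against 1.12, 2.55 and 4.32 CPM in wild-type libraries, which overlapped (-1.71, SE 0.72, adjusted p = 0.449). Without the Mysm1-/-Puma+/- library A2 this was -3.00 (adjusted p = 0.133). Mirg, the microRNA host at the far end of the cluster, was counted in 20 of 29 libraries. It had 0 reads in all 4 Mysm1-/-Puma+/- CD150-positive libraries, against 0, 6, 16 and 51 reads in the wild-type libraries. The pooled wild-type level was 32.3 times a floor of 3 counts over the Mysm1-/-Puma+/- group. This ratio leaves out error in the wild-type count, spread among libraries and any fragment counted more than once. Of the 73 wild-type reads, 51 came from the library D3-4, without which the ratio is 14.01, and the library W1 had 0. In CD150-negative cells Mirg had 4, 6 and 22 reads in Mysm1-/-Puma+/- libraries, against 0, 2 and 7 in wild-type libraries, and the groups overlapped (log2 fold change 1.63, SE 1.68, not called, with an unadjusted p of 0.344 in edgeR).

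H19, a maternally expressed RNA that hosts miR-675, had 0.210, 0.434, 0.968 and 2.27 CPM in Mysm1-/-Puma+/- CD150-positive libraries, against 1.78, 2.90, 5.55 and 7.34 CPM in wild-type libraries. The groups overlapped (-2.12, SE 0.68, adjusted p = 0.286). Without the Mysm1-/-Puma+/- library A4 the difference was -2.95 (adjusted p = 0.0891). In CD150-negative cells the values were 0.399, 0.601 and 1.06 CPM in Mysm1-/-Puma+/- libraries, against 1.15, 2.30 and 2.51 CPM in wild-type libraries, without overlap (-1.49, SE 0.78, adjusted p = 0.594). Igf2, the growth factor encoded beside H19, overlapped between Mysm1-/-Puma+/- and wild-type CD150-positive libraries, at 1.77 to 5.57 CPM against 2.89 to 7.94 CPM (-0.58, SE 0.47, adjusted p = 0.699). Igf2 was higher in CD150-positive than in CD150-negative Puma-/- cells (2.42, SE 0.67, adjusted p = 0.0302), a call lost at 0.485 without the CD150-positive library C2-5, which has the highest receptor background, and lost too without any 1 of the CD150-negative libraries C2, C3 and C5. In wild-type mice it was not called (1.64, SE 0.59, adjusted p = 0.101).

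Plagl1, a zinc finger factor that slows growth, and Peg3, a zinc finger protein tied to growth and cell death, overlapped between Mysm1-/-Puma+/- and wild-type CD150-positive libraries. In CD150-positive cells Plagl1 had 0.898 to 2.98 CPM in Mysm1-/-Puma+/- libraries, against 1.67 to 7.86 CPM in wild-type libraries (-0.79, SE 0.62, adjusted p = 0.694). Its difference between CD150-positive and CD150-negative Puma-/- cells was 2.42 (SE 0.82, adjusted p = 0.0945). Peg3 had 0.898 to 2.32 CPM in Mysm1-/-Puma+/- libraries, against 1.22 to 5.38 CPM in wild-type libraries (-1.01, SE 0.54, adjusted p = 0.61).

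Side by side, 9 of the 10 members had a negative log2 fold change for Mysm1-/-Puma+/- against wild type in CD150-positive cells, with a median of -1.20, against -0.05 over all genes tested. Of 57 other imprinted genes tested there, 34 were negative, with a median of -0.25. Most members lay near the receptor yardstick, and receptor background was 1420 to 3449 CPM in these Mysm1-/-Puma+/- and 2564 to 8186 CPM in these wild-type libraries. Its part in the count of signs was not tested. In CD150-negative cells 8 members were negative, with a median of -0.52 against -0.05 over all genes. For Mysm1-/-Puma-/- against Puma-/-, 9 were negative in CD150-positive cells (median -1.12, against -0.09 over all genes) and 5 in CD150-negative cells (median 0.01, against 0.03).

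**Figure D4:**
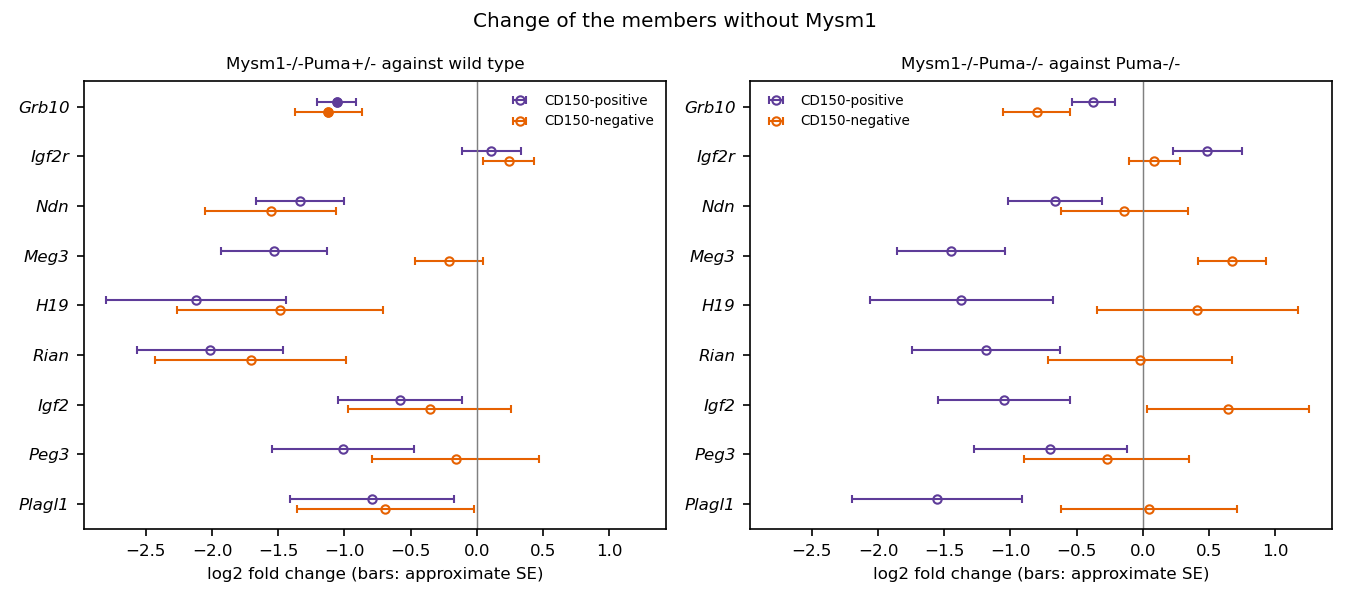
Log2 fold changes with approximate SE of 9 members (without Mirg, which was at 0 in a whole group) for Mysm1-/-Puma+/- against wild type and for Mysm1-/-Puma-/- against Puma-/- in CD150-positive (purple) and CD150-negative (orange) cells. Filled points passed an adjusted p under 0.05, which only Grb10 did, at -1.06 and -1.12.

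The members' levels were also set against receptor background library by library. Over the 17 CD150-positive libraries, Pearson's r between a member's log2 level and log2 receptor background was 0.92 for Plagl1, 0.81 for Igf2, 0.75 for Meg3, 0.64 for Peg3, 0.62 for Mirg, 0.58 for Rian and 0.49 for H19. It was 0.21 for Grb10, 0.23 for Ndn and -0.67 for Igf2r. Over the 12 CD150-negative libraries it was 0.84 for Plagl1, 0.93 for Igf2, 0.89 for Meg3, 0.81 for Rian, 0.72 for Peg3, 0.64 for H19, 0.23 for Mirg, 0.35 for Grb10, 0.60 for Ndn and -0.10 for Igf2r. The points share libraries and depth, so these values are descriptions. With receptor background as a covariate, a fit added after seeing the data, Plagl1 in CD150-positive Mysm1-/-Puma+/- against wild-type cells came to 0.022 in place of -0.79. In that fit Igf2 came to -0.22 in place of -0.58 and Peg3 to -0.77 in place of -1.01. Meg3 came to -1.30 in place of -1.53, Rian to -1.85 in place of -2.02 and H19 to -2.04 in place of -2.12. None of these was called. Grb10 stayed called, and Ndn became called (-1.45, adjusted p = 0.0297). The part of background in these differences was not tested.

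Across all 29 libraries, the levels of Grb10 and Ndn had a Pearson's r of 0.87 and those of Igf2 and Plagl1 one of 0.85. Among 12811 genes, the 3 most like Grb10 were Trpc6 (r = 0.954), Mmrn1 (0.953) and Tgm2 (0.948). Those most like Meg3 were Nrg3 (0.906), 6030440G07Rik (0.899) and Gm10791 (0.891), and those most like Igf2r were Aagab (0.737), Kcnn4 (0.724) and Icam1 (0.706).

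**Figure D5:**
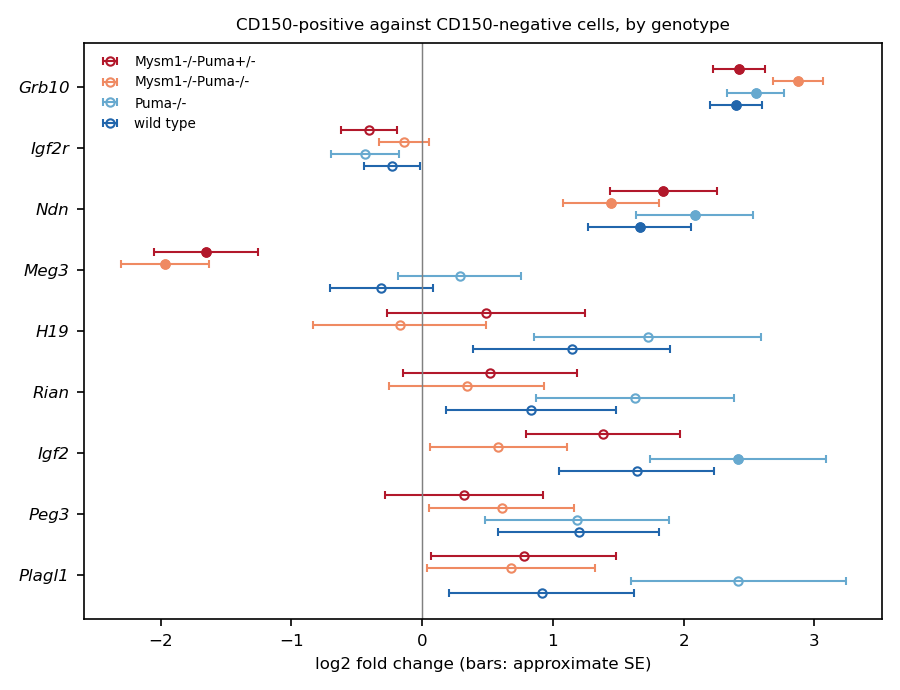
Log2 fold changes with approximate SE of 9 members between CD150-positive and CD150-negative cells in each genotype, with filled points where the adjusted p was under 0.05. Grb10 and Ndn are filled on the right in all 4 genotypes, and Meg3 is filled on the left in Mysm1-/-Puma+/- and Mysm1-/-Puma-/- cells. Igf2 is filled in Puma-/- cells.

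Other imprinted genes and the growth pathway around the members were read from lists of 67 imprinted genes, 31 genes of insulin-like growth factor and mTOR signalling and 19 genes that set or read imprints. For Mysm1-/-Puma+/- against wild type, 0 of 57 other imprinted genes tested were called by edgeR in CD150-positive cells, with 8 at an unadjusted p under 0.05. In CD150-negative cells 1 of 58 was called: Cd81, a tetraspanin, was higher by 0.95 on the log2 scale (SE 0.13, adjusted p = 0.000804). None of the 31 growth pathway genes was called in either population by edgeR, with 5 and 4 at an unadjusted p under 0.05. None of the imprint genes was called in either population by edgeR, with 2 and 1 at an unadjusted p under 0.05. Over all genes tested, 0.454% were called in CD150-positive and 0.869% in CD150-negative cells, with 1824 of 20944 and 2020 of 21168 at an unadjusted p under 0.05.

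Between the fractions of wild-type mice, 5 of 57 other imprinted genes were called higher and 4 lower in CD150-positive cells, where 3.09% of all genes were called higher and 4.05% lower. Cdkn1c, which encodes the cell cycle inhibitor p57, was higher by 1.57 (SE 0.35, adjusted p = 0.00361), and Htr2a, a serotonin receptor, by 2.28 (adjusted p = 0.00363). Mest, a paternally expressed gene, was lower, at -3.85 (SE 0.76, adjusted p = 0.000998), as was Atp10a at -0.83 (adjusted p = 0.00139). Of the growth pathway genes, Igf2bp2, an RNA-binding protein that binds Igf2 RNA, was higher by 1.20 (adjusted p = 0.00372), and 5 were lower, among them Hmga2 at -2.04 (adjusted p = 0.000768) and Igfbp4 at -1.12 (adjusted p = 0.00215). Of the 19 imprint genes, the DNA methyltransferases Dnmt3b (-0.73, adjusted p = 0.00664) and Dnmt3a (-0.51, adjusted p = 0.043) were lower.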

How the data were processed

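For each of 29 libraries of ribosomal-RNA-depleted RNA, the authors deposited raw counts of reads by gene. Per the submitters' processing notes, FastQC, Trimmomatic 0.33, TopHat2 2.0.9, Bowtie 1.0.0, featureCounts and edgeR in R 3.4.2 were used with build mm9. The strand setting is not given in the sources used here. A deposited matrix of normalised CPM was not used. Counts were fitted with edgeR 4.0.16 in R 4.3.3 by the quasi-likelihood F test with TMM factors and filterByExpr, with 20944 genes in the CD150-positive, 21168 in the CD150-negative and 21830 in the joint fit of all libraries. The first 2 fits gave the genotype comparisons, and the joint fit gave those between fractions and the difference of effects. Adjusted p-values are Benjamini-Hochberg values over all genes tested, called under 0.05. The SE of a log2 fold change is approximate, taken from its size and the F statistic. Levels use TMM factors of the joint fit. Any 2 libraries within a group differed beyond sampling noise, with a chi-square over its degrees of freedom of at least 20.75. Alternatives were RLE size factors, no filter, DESeq2 1.42.0, a replicate block, leaving out each library, leaving out the libraries named P and W, CPM of plain library totals and, added after seeing the data, the receptor background as a covariate and without libraries of high background. Same-numbered libraries of Mysm1-/-Puma+/- and wild type in CD150-positive cells deviated together (r from 0.107 to 0.448 in 4 of 4 pairs). So did those of Puma-/- and wild type (0.222 to 0.582 in 3 of 3). The labels do not give the title numbers as a pairing. Libraries of unlike number were not compared, so these values cannot show that the numbers pair libraries. Deviations were taken from group means, so those of the 2 Puma-/- libraries mirror each other and their 3 pairs are not separate. Libraries of the same name in both fractions had r from -0.187 to 0.593, over 0.1 in 4 of 7 pairs. The main joint fit left these unpaired, and its replicate block paired them. The scripts' tests were checked on simulated counts with known changes. A recovery cutoff set at first was missed for 2-fold changes. The check was then changed to bias, false calls and recovery of 4-fold changes. At these group sizes the absence of a call for a 2-fold change is thus weak evidence. The members and lists were chosen with earlier results of these data known. All 10 members were tested in every comparison, but values are printed here for only some of them in each.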

Additional observations from a re-analysis of the deposited data

Results flagged for a closer look

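Grb10 in the Mysm1-/-Puma+/- library A3 of CD150-positive cells, at 39.8 CPM, lay apart from the other 3 libraries of its group, which ran from 42.1 to 42.5 CPM. Its gap to the nearest, divided by the group's range, was 0.875. The 4 wild-type libraries ran from 79.7 CPM upward. Of 29 groups of 4 to 10 values examined, 1 was picked out, and chance picks about 1 in 20.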

How the results depend on the processing

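For Mysm1-/-Puma+/- against wild type in CD150-positive cells, where 1 member and 0.454% of all genes were called, the replicate block called 3 members and 0.769% of genes, DESeq2 4 members and 1.45%, and the receptor covariate 2 members and 0.549%. In CD150-negative cells, against 1 member and 0.869%, the block called 0 members and 0.255%, RLE size factors 0 and 0.916%, leaving out libraries of high receptor background 0 and 0.907%, and leaving out single libraries 0 to 1 members. Same-numbered libraries of pairs of groups not named above had r from -0.47 to 0.54 among CD150-positive and -0.46 to 0.34 among CD150-negative libraries. Among them, Mysm1-/-Puma+/- and Puma-/- in CD150-positive cells also deviated together (0.346 and 0.381, 2 of 2 pairs). So did Mysm1-/-Puma+/- and Mysm1-/-Puma-/- in CD150-negative cells (0.281 and 0.315, 2 of 2 pairs). The block changed no count of members called in the other comparisons between genotypes. The receptor covariate called 1 member, Grb10, for Mysm1-/-Puma-/- against Puma-/- in CD150-negative cells (adjusted p = 0.0495), with 2.37% of genes in place of 1.35%. Between fractions it called 5 in Mysm1-/-Puma+/- mice, with 10.3% of genes in place of 5.9%. It called 4 in place of 3 in Mysm1-/-Puma-/- mice, with 15.6% of genes in place of 12.3%. In wild-type mice it called 3 in place of 2, with 12% of genes in place of 7.15%. Small shifts of the counts between fractions in other settings are not listed. In Puma-/- mice 1 was called without high-background libraries, with 2.22% of genes in place of 4.94%, and 1 to 3 without single libraries, and in wild-type mice 1 to 2 without single libraries. Signs turned for 9 log2 differences. The alternatives were followed for a chosen part of the members in each comparison, so this is no count over all of them. For Mysm1-/-Puma+/- against wild type in CD150-positive cells, Igf2r became -0.085 with the covariate, -0.066 without high-background libraries and -0.020 to 0.22 without single libraries, and Plagl1 0.022 with the covariate. In CD150-negative cells Meg3 became 0.057 with the covariate and -0.45 to 0.00091 without single libraries. Also in CD150-negative cells, Grb10 in Mysm1-/-Puma-/- against Mysm1-/-Puma+/- became 0.11 with the block, 0.0057 without high-background libraries and -0.24 to 0.38 without single libraries. Ndn there ran from -0.37 to 0.28 for Mysm1-/-Puma-/- against Puma-/- and from -0.60 to 0.078 for Puma-/- against wild type without single libraries. The difference between the Mysm1-/-Puma+/- effects of the fractions became -0.031 for Grb10 without high-background libraries and -0.20 to 0.36 without single libraries. For Ndn it became -0.027 with the block and -0.098 to 0.47 without single libraries. Meg3 between the Puma-/- fractions became -0.31 with the covariate, -0.43 without high-background libraries and -0.43 to 0.77 without single libraries. The cause of these shifts was not tested. With 2 to 7 libraries a group, a missed threshold does not show equal levels.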

Other observations

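In 29 of 29 libraries more genes had a count of 2 than a count of 1. Between counts of 10 and 300, 51.69% to 62.78% of genes had an even count, and the Ndn count was even in 26 of 29 libraries. How the mates of a read pair were counted is not given in the sources used here.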
